A study of Mus musculus with 9 samples.

Results

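The genes described here encode the proton pump of the lysosome, the cathepsins, and the lysosomal membrane proteins Lamp1 and Lamp2. They were chosen by name among protein-coding genes, as symbols that begin with Atp6v0 or Atp6v1, symbols of Cts followed by letters or digits, and Lamp1 and Lamp2. Atp6v0d2 and Atp6v1b1, subunit forms known for macrophages and osteoclasts and for kidney, were left out by that rule. The rule found 35 of 23944 genes. These are 11 genes of the pump's V1 sector, 8 of its V0 sector, 14 cathepsins and both Lamp genes. The rule uses names and no measured value, but it was set with earlier results of these data known.

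RNA was sequenced from whole left lungs of wild-type adult mice, with 3 libraries in each of 3 groups. Naive lungs came from C57BL/6 mice that had no transplant. In the cold-ischemia group, C57BL/6 left lungs were kept at 0 °C for 24 h, placed into Balb/C recipients and reperfused for 2 h. In the shock group, the donor first went through 4 h of hypovolemic shock at a mean arterial pressure of 15 ± 5 mmHg and 20 h of recovery, and the lung then had the same storage and reperfusion. Every graft therefore combines donor lung with blood cells of a recipient of another strain, storage in the cold and surgery, and no group was stored without a transplant or transplanted without storage. The labels name no separate animals, so p-values measure only the spread between these samples.

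Total counts per library ran from 18913487 to 34986276, and markers of lung epithelium were abundant in every library. The titles place 1 library as cold-ischemia replicate 2 and 1 as shock replicate 3, whereas the deposited tables of the authors place each of these in the other graft group. Groups here follow the titles, and the comparison of all 6 grafts with naive lungs needs no choice between them. A record of another series is also cited in the labels of each naive library and of no graft, so a difference in preparation or sequencing and the difference between grafts and naive lungs cannot be told apart.

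The V-ATPase is a rotary pump. Its V1 sector hydrolyses ATP on the cytosolic side of the membrane and turns a rotor that drives protons through the V0 sector into the lysosome. The acid that results lets the cathepsins, proteases that are mostly made as inactive precursors, mature and digest protein. Lamp1 and Lamp2 are heavily glycosylated proteins that line the inner face of the lysosomal membrane. In the lung this machinery is prominent in alveolar macrophages, and related acidic organelles, the lamellar bodies, store surfactant in alveolar type 2 cells. Many of these genes are targets of TFEB and TFE3, transcription factors that bind the palindrome CACGTG, in particular within a longer site called CLEAR.

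The promoters of members were searched for that palindrome and for the longer palindrome TCACGTGA, because both are short forms of the CLEAR site. RefSeq promoters on GRCm38.p6, each 300 bases from 250 before to 50 after the start, were found for 26 of the 35 members, in 30 promoters. Each motif reads the same on both strands, and every copy of the longer motif contains the shorter one. The shorter motif stood in 9 of the 30 promoters, 30.0%, against 7.15% of all 32851 mouse promoters of the same length. The longer motif stood in 5 of them, 16.7%, against 0.974% of all promoters. The 9 members that hold CACGTG are Atp6v1a, Atp6v0b, Atp6v0d1, Atp6v0e, Lamp1, Ctsl, Ctsf, Ctsd and Ctsa. A match describes the letters in this window and is neither a site of binding nor a cause. Atp6v1b2, Atp6v1c1, Atp6v1g1, Atp6v1h, Atp6v0a2, Ctsb, Ctse, Ctsh and Ctsw were not matched to a promoter.

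Windows from 4 of these promoters are shown, since they belong to a member that rose in grafts, a member that fell and 2 abundant members that were not called. They read 5′ to 3′ on the gene's strand, with 1 copy of the motif in capitals. The window of Atp6v1a lies at chr16:44139364-44139411 on the minus strand, with the motif beginning at base -132 from the start. That of Ctsf lies at chr19:4855066-4855111 on the plus strand, with the motif from base -79. That of Ctsd lies at chr7:142387899-142387946 on the minus strand, with the motif from base -99. That of Lamp1 lies at chr8:13159080-13159125 on the plus strand, with the motif from base -61, and is 1 of 4 copies of CACGTG in that promoter.
Atp6v1a: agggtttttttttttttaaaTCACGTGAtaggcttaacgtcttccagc
Ctsf: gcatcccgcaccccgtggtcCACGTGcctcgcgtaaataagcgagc
Ctsd: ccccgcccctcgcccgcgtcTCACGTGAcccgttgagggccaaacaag
Lamp1: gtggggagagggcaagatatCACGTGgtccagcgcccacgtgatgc

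In naive lungs the most abundant members per length of transcript were Lamp1 and Ctsd. On the deposited FPKM scale, which divides reads by gene length and library total, the naive mean was 424.5 ± 13.9 for Lamp1 (SD, n = 3) and 356.9 ± 15.3 for Ctsd. Ctss followed at 140.0 ± 11.6 FPKM and Ctsl at 128.9 ± 5.08 FPKM, which differed by no more than their spread. Ctsh (110.5 ± 12.7 FPKM), Ctsc (110.0 ± 1.40 FPKM), Lamp2 (108.7 ± 3.23 FPKM) and Ctsb (107.3 ± 3.96 FPKM) stood close together below them, and neighbours in that order differed by no more than their spread. Among pump genes the highest naive FPKM were those of Atp6v1g1, at 95.4 ± 5.63, and Atp6v1e1, at 85.9 ± 4.52, both parts of the stalks that hold the sector still against the rotor. The catalytic subunit gene Atp6v1a stood at 43.6 ± 2.17 FPKM. At the low end were Ctsw with 2.05 ± 0.515 FPKM, Ctse with 1.05 ± 0.232 FPKM, and Atp6v1g2, a form of subunit G known from neurons, with 1.14 ± 0.308 FPKM. Atp6v1g3, the kidney form of that subunit, had 0 to 16 reads per library and did not pass the filter on low counts.

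Against naive lungs, the grafts had more RNA of some pump subunits and of several cathepsins, and less of a few. Of 34 members tested, 11 were higher in the 6 grafts, 3 were lower and 20 were not called at an adjusted p under 0.05 (edgeR's quasi-likelihood test, Benjamini-Hochberg adjusted over all 15834 genes tested). That is 41.2% of the members, close to the 40.8% of all genes tested that were called in this comparison. By direction, 32.4% of members were higher, against 22.1% of all genes, and 8.82% were lower, against 18.7% of all genes. The median log2 fold change was 0.18 over the members and -0.04 over all genes tested. At 9 members all 6 grafts lay above all 3 naive libraries, at 3 they lay below, and at 22 the groups overlapped, where 20.9% of all genes tested lay wholly above and 20.0% wholly below. Leaving out the 2 libraries whose group is disputed gave 11 members higher and 2 lower. Leaving out naive replicate 1 or naive replicate 3 gave 6 members higher, and leaving out naive replicate 2 gave 1 lower. Calls over all genes fell in these fits too, from 6453 to 5001, 4712 and 5345 without naive replicate 1, 2 and 3.

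The direction balance depended on how libraries were scaled. The values above use TMM scaling, which sets library sizes by a trimmed mean of the log ratios between libraries. With upper-quartile scaling the median of all genes moved to -0.25 and 6 members were higher and 3 lower. With total counts alone it moved to -0.37, and 3 members were higher and 6 lower. Among all called genes, 54.2% were higher with TMM, 35.6% with upper-quartile scaling and 27.4% with total counts alone. Ctse, Ctsg and Atp6v1a stayed higher, and Atp6v0e2, Ctsf and Ctso stayed lower, under all 3 scalings. Ratios between members within a library do not depend on the scaling and are given beside the results they touch.

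**Figure D1:**
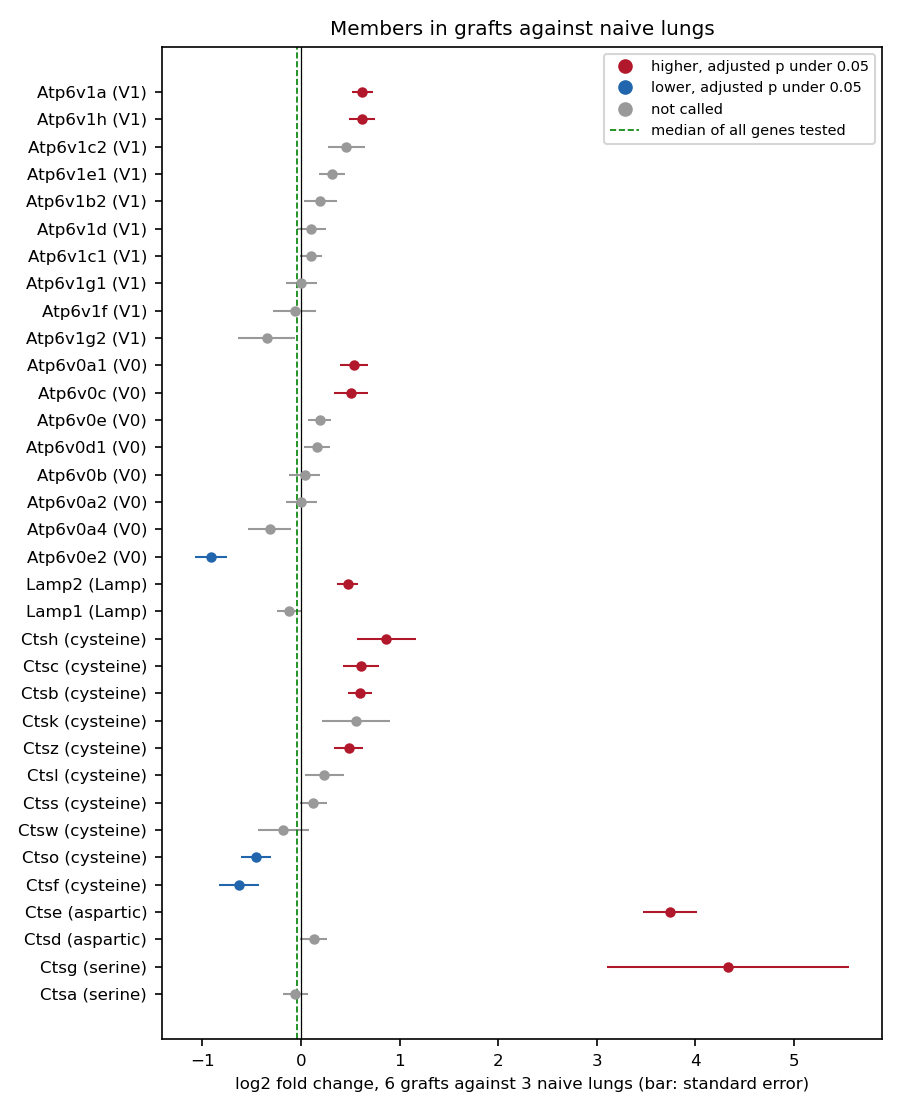
Log2 fold change of each of the 34 tested members, 6 grafts against 3 naive lungs with TMM scaling, ordered by role and size, with the standard error as a bar. Red points are higher and blue points lower at an adjusted p under 0.05, grey points are not called, and the dashed line is the median of all genes tested at -0.04. Ctse (3.74) and Ctsg (4.33) stand far to the right, and Atp6v0e2 (-0.92) is the lowest.

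In the V1 sector, Atp6v1a and Atp6v1h were higher in grafts and none of the 10 tested genes was lower. Thus 20.0% of these genes were higher, against 22.1% of all genes tested, and 18.7% of all genes were lower. Atp6v1a encodes subunit A, which binds and splits ATP. It measured 164, 151 and 162 CPM (counts scaled to a common library size) in the naive libraries and 228 to 261 CPM in the grafts, with a median of 245.5 CPM. Every graft lay above every naive library. The log2 fold change was 0.62 ± 0.11 (adjusted p = 0.000693), and it stayed called under all 19 alternatives computed. Atp6v1h encodes subunit H, which couples ATP splitting to proton transport. It measured 57.7, 51.1 and 54.2 CPM in naive lungs, and in grafts it ran from 70.6 CPM in shock replicate 1 to 100.1 CPM in shock replicate 2. Here, too, the groups did not overlap, with a log2 fold change of 0.62 ± 0.13 (adjusted p = 0.00325). With total counts alone the change of Atp6v1h was 0.30 (adjusted p = 0.0766).

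Other V1 genes moved less or more unevenly. Atp6v1e1, for the peripheral stalk, lay above all naive libraries in every graft, at 92.1 to 141 CPM against 85.9 to 91.7 CPM, but its log2 fold change of 0.32 ± 0.13 was not called (adjusted p = 0.0775). Without cold-ischemia replicate 2 it was 0.37 (adjusted p = 0.0433). Atp6v1c2, whose product is a form of subunit C found in lamellar bodies of mouse type 2 cells, had a log2 fold change of 0.46 ± 0.19 (adjusted p = 0.0698). It was called without cold-ischemia replicate 2 (0.52, adjusted p = 0.0461) and without shock replicate 2 (0.53, adjusted p = 0.0226). The broadly used form Atp6v1c1 had a log2 fold change of 0.10 ± 0.11, and the share of Atp6v1c2 in the summed FPKM of the C genes overlapped between naive lungs (55.9% to 61.7%) and grafts (57.1% to 69.2%). Atp6v1b2, the B subunit that pairs with subunit A in the catalytic ring, measured 123.2 to 132 CPM in naive lungs and had a log2 fold change of 0.20 ± 0.17. Its graft values ran from 119 CPM in shock replicate 3 to 206 CPM in shock replicate 2, so the ratio of Atp6v1a to Atp6v1b2 was above the naive range of 0.760 to 0.890 in 5 grafts and was 0.747 in shock replicate 2. The rotor genes Atp6v1d and Atp6v1f and the stalk gene Atp6v1g1 had log2 fold changes of 0.10, -0.07 and 0.00. The ratio of Atp6v1h to Atp6v1d, both per length, was 0.749 to 0.879 in naive lungs and 1.05 to 1.33 in grafts, with no overlap.

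In the V0 sector, Atp6v0a1 and Atp6v0c were higher in grafts and Atp6v0e2 was lower, among 8 tested genes. By share, 25.0% were higher and 12.5% lower, against 22.1% and 18.7% of all genes tested. Atp6v0e2 encodes a form of subunit e, a small membrane protein of the sector, and is known mainly from brain. It fell from 20.6, 21.4 and 17.0 CPM in naive lungs to 7.77 to 12.0 CPM in grafts, with a median of 10.9 CPM. The highest graft was below the lowest naive library. The log2 fold change was -0.92 ± 0.16 (adjusted p = 0.000983) and the gene stayed called under all 19 alternatives. Its widespread counterpart Atp6v0e had a log2 fold change of 0.19 ± 0.12 (adjusted p = 0.21). The share of Atp6v0e2 in the summed FPKM of both e genes was 33.6%, 33.4% and 26.8% in naive lungs and 13.4% to 20.1% in grafts. This share fell below the naive range in every graft, and no scaling enters it.

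The a subunits form the channels by which protons enter and leave the rotor ring, and their forms differ in where they send the pump. Atp6v0a1 measured 113, 115 and 84.4 CPM in naive lungs and 132 to 174 CPM in grafts, with no overlap. Its log2 fold change was 0.54 ± 0.14 (adjusted p = 0.00904), and with upper-quartile scaling it was 0.33 (adjusted p = 0.0724). Atp6v0a2, known for the Golgi and endosomes, had a log2 fold change of 0.00 ± 0.16, and Atp6v0a4, the kidney form, one of -0.32 ± 0.21 on 3.32 to 6.79 CPM. Grouped as in the deposited tables, Atp6v0a4 was lower in cold-ischemia grafts (-0.61 ± 0.20, adjusted p = 0.0351) and not called in shock grafts (-0.08 ± 0.20). It overlaps D630045J12Rik on the same strand over 1413 bases, which had 4241 reads against 1243 for Atp6v0a4. The a3 form, Tcirg1, lies outside the naming rule. It is the form of lysosomes and of osteoclasts, and it was higher in grafts at 36.1 to 55.3 CPM against 24.6 to 27.4 CPM (log2 fold change 0.75 ± 0.16, adjusted p = 0.00326). Of the summed FPKM of the 4 a genes, Tcirg1 made up 14.8% to 17.8% in naive lungs and 17.8% to 24.7% in grafts, so that the nearest libraries almost touched. Atp6v0a2 made up 28.2% to 37.3% in naive lungs and 22.4% to 27.3% in grafts.

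Atp6v0c encodes the proteolipid that makes up most of the proton-carrying ring. It measured 90.7, 89.1 and 98.4 CPM in naive lungs and 97.5 to 170 CPM in grafts, where cold-ischemia replicate 2 was the lowest and overlapped the naive range. The log2 fold change of 0.51 ± 0.18 passed narrowly (adjusted p = 0.0385). It was not called in 8 of 19 alternatives. Among these were the fits without naive replicate 1 (0.48), naive replicate 2 (0.48), naive replicate 3 (0.55), cold-ischemia replicate 1 (0.49) and cold-ischemia replicate 3 (0.445, adjusted p = 0.063). Atp6v0b, the other proteolipid gene, and Atp6v0d1, which links the ring to the rotor, had log2 fold changes of 0.04 ± 0.16 and 0.16 ± 0.14. Of the paralogues left out by the rule, Atp6v0d2 was not called. It ran from 28.9 to 48.7 CPM over all 9 libraries with a log2 fold change of -0.01.

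The Lamp genes parted. Lamp2, needed in mice for autophagosomes to be cleared, measured 339, 324 and 351 CPM in naive lungs and 435 to 500.2 CPM in grafts. Every graft lay above every naive library, and the log2 fold change was 0.47 ± 0.11 (adjusted p = 0.00411). Lamp1 measured 816, 842 and 817 CPM in naive lungs and 618 to 848 CPM in grafts, with a median of 774.0 CPM and the lowest value in shock replicate 2. Its log2 fold change was -0.12 ± 0.12 (adjusted p = 0.464). With total counts alone both genes changed sides of the threshold, Lamp2 to 0.15 (adjusted p = 0.233) and Lamp1 to -0.44 (adjusted p = 0.0134). The ratio of Lamp2 to Lamp1 on the FPKM scale was 0.260, 0.241 and 0.269 in naive lungs and 0.334 to 0.481 in grafts, with no overlap. This ratio was highest in shock replicate 2.

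**Figure D2:**
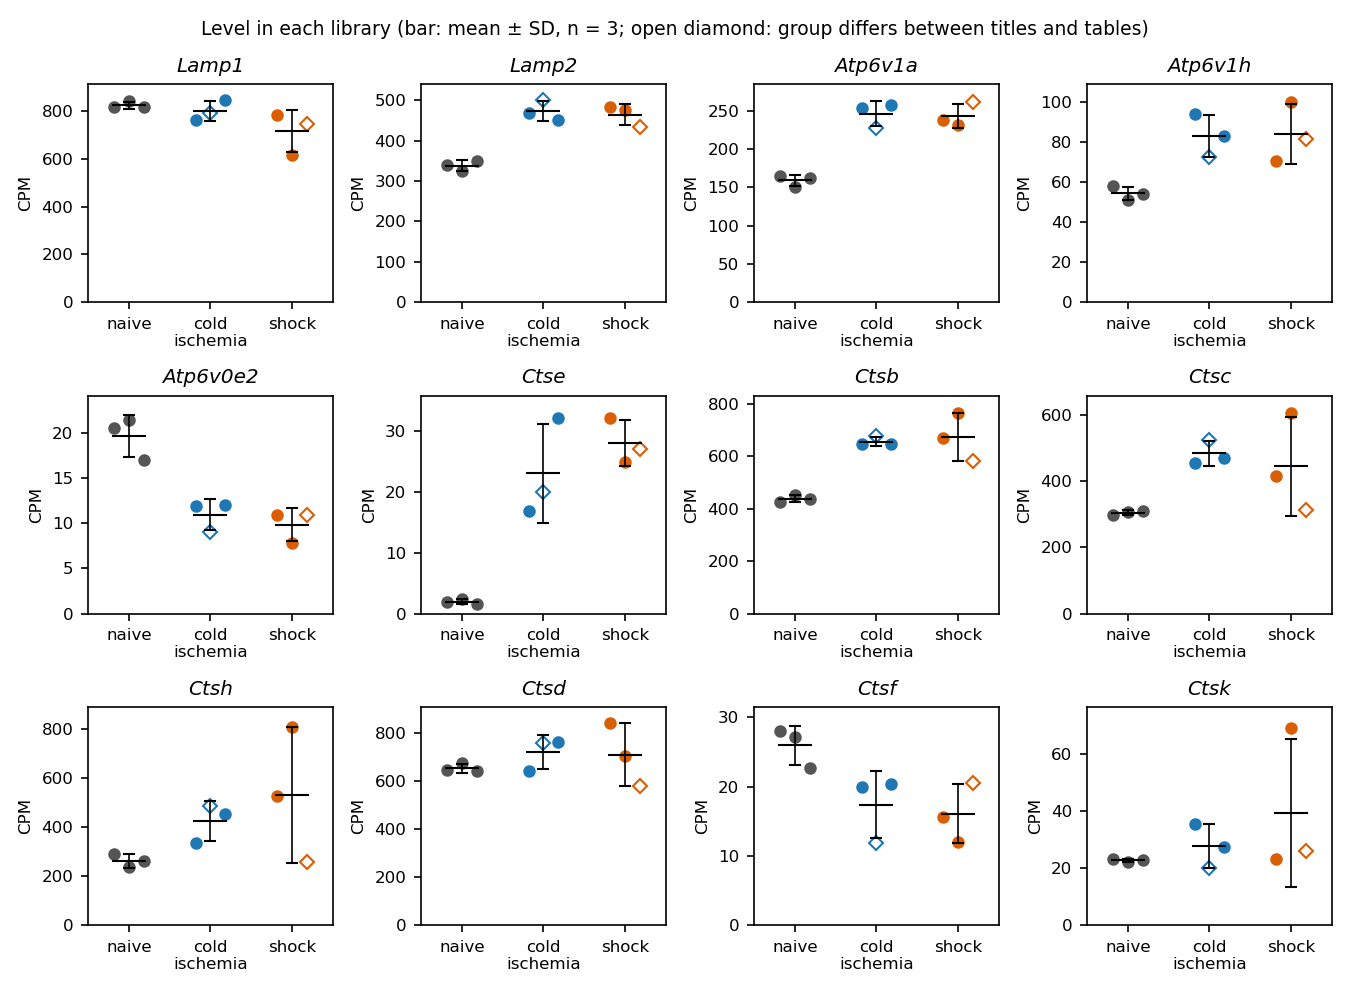
CPM on TMM-scaled library sizes of 12 members in each library, by group, with the mean and SD of the 3 libraries as a bar, each axis from 0. Open diamonds mark the 2 libraries whose group differs between titles and deposited tables. Lamp2, Atp6v1a, Atp6v1h, Ctse, Ctsb and Ctsc lie higher in every graft than in any naive library, Atp6v0e2 and Ctsf lie lower, and Ctsk stands out at 69.2 CPM in shock replicate 2.

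Among the 10 cysteine cathepsins, Ctsb, Ctsc, Ctsh and Ctsz were higher in grafts and Ctsf and Ctso were lower. These are 4 and 2 of 10 genes, beside 22.1% higher and 18.7% lower among all genes tested. The share that was lower was thus close to that of all genes. Ctsb, an abundant protease that cleaves within proteins and also trims their ends, measured 425, 453 and 437 CPM in naive lungs and 582 to 765 CPM in grafts. All grafts lay above, with a log2 fold change of 0.60 ± 0.12 (adjusted p = 0.00209). It lost its call with total counts alone (0.28, adjusted p = 0.0656). The ratio of Ctsb to Ctsd per length was 0.295, 0.301 and 0.306 in naive lungs and 0.356 to 0.487 in grafts, again with no overlap. Part of Ctsb lies opposite Fdft1, whose reads over all libraries were 10390 against 131020 for Ctsb, and since the labels do not state strand, reads of overlapping genes cannot be told apart.

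Ctsc encodes the dipeptidyl peptidase that activates the serine proteases of neutrophil granules. It measured 297, 307 and 310.2 CPM in naive lungs. In grafts it ran from 312 CPM in shock replicate 3, just above naive, to 604.5 CPM in shock replicate 2, with a median of 463 CPM. The log2 fold change was 0.61 ± 0.18 (adjusted p = 0.0195). Without naive replicate 1, 2 or 3 it was 0.58, 0.61 and 0.62 and was not called (adjusted p = 0.0762, 0.0664 and 0.0548). Ctsz, a carboxypeptidase, measured 113, 129 and 118 CPM in naive lungs and 135 to 215 CPM in grafts, with no overlap and a log2 fold change of 0.48 ± 0.15 (adjusted p = 0.0217). It was not called without naive replicate 1 (0.43, adjusted p = 0.0956) or naive replicate 3 (0.47, adjusted p = 0.0702).

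Ctsh is an aminopeptidase that takes part in the processing of surfactant proteins in type 2 cells. It measured 289, 234 and 260 CPM in naive lungs, 333, 486 and 451 CPM in the cold-ischemia grafts and 524, 807 and 256 CPM in the shock grafts. Shock replicate 3, whose group is disputed, lay within the naive range and the other 5 grafts lay above it. The log2 fold change was 0.87 ± 0.30 (adjusted p = 0.0361), and the call was lost in 8 of 19 alternatives. These include the fits without naive replicate 1 (0.93), naive replicate 2 (0.79), naive replicate 3 (0.86), cold-ischemia replicate 2 (0.86) and shock replicate 1 (0.84), with adjusted p from 0.0566 to 0.127. The summed CPM of 10 type 2 markers was 25270 to 27820 in naive lungs and 19830 to 28400 in grafts, with 0 of 10 higher and 2 lower, and the part of these cells in the values of Ctsh was not tested.

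Ctsf and Ctso, both lysosomal proteases that are little studied beside Ctsb and Ctsl, went the other way. Ctsf measured 28.0, 27.1 and 22.7 CPM in naive lungs and 11.8 to 20.5 CPM in grafts, all lower. Its log2 fold change was -0.63 ± 0.20 (adjusted p = 0.0261), and it was not called without naive replicate 1 (-0.59, adjusted p = 0.0893) or naive replicate 2 (-0.60, adjusted p = 0.0907). Ctso measured 55.6, 64.6 and 61.9 CPM in naive lungs and 32.6 to 53.2 CPM in grafts, all lower. Its log2 fold change was -0.46 ± 0.15 (adjusted p = 0.0302). Ctso was not called without naive replicate 2 (-0.42, adjusted p = 0.117), naive replicate 3 (-0.45, adjusted p = 0.0864), cold-ischemia replicate 2 (-0.45, adjusted p = 0.0525) or shock replicate 1 (-0.43, adjusted p = 0.0555).

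The other cysteine cathepsins were not called. Ctsl, which cleaves within proteins, measured 215, 226 and 216 CPM in naive lungs and 178 to 379 CPM in grafts (log2 fold change 0.24 ± 0.20, adjusted p = 0.371). Ctss, which trims the invariant chain during antigen presentation, measured 173, 163 and 154 CPM in naive lungs and 155 to 221 CPM in grafts (0.12 ± 0.13, adjusted p = 0.485). In both, the graft range reached from within or below the naive range to well above it, with shock replicate 2 the highest. Ctsk, a collagen-degrading protease, is the neighbour of Ctss on chromosome 3. It measured 23.3, 22.3 and 22.7 CPM in naive lungs, 35.5, 20.1 and 27.2 CPM in cold-ischemia grafts and 23.1, 69.2 and 25.8 CPM in shock grafts. Its log2 fold change was 0.56 ± 0.34 with shock replicate 2 (adjusted p = 0.215) and 0.21 without it (adjusted p = 0.324). Ctsw, a protease of cytotoxic lymphocytes, stood between 1.54 and 2.76 CPM in all libraries.

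Among the aspartic cathepsins, Ctse rose in every graft while Ctsd did not pass the test. Ctse encodes a protease of endosomes in immune and epithelial cells, and the gene lies at chr1:131638306-131675505 on the plus strand of mm10. It measured 1.95, 2.31 and 1.52 CPM in naive lungs, 16.9, 20.0 and 32.2 CPM in the cold-ischemia grafts and 32.2, 24.9 and 27.1 CPM in the shock grafts. The lowest graft was several times above the highest naive library. The log2 fold change was 3.74 ± 0.27 (adjusted p = 1.92e-06), with a range of 3.42 to 3.88 over 19 alternatives. Ctsd, the main aspartic protease of lysosomes, measured 646, 676 and 642 CPM in naive lungs and 579.8 to 843 CPM in grafts, which overlapped (0.13 ± 0.14, adjusted p = 0.477). The share of Ctse in the summed FPKM of both genes was 0.301%, 0.340% and 0.236% in naive lungs and 2.56% to 4.46% in grafts, so Ctsd made up nearly all of that sum in every library.

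**Figure D3:**
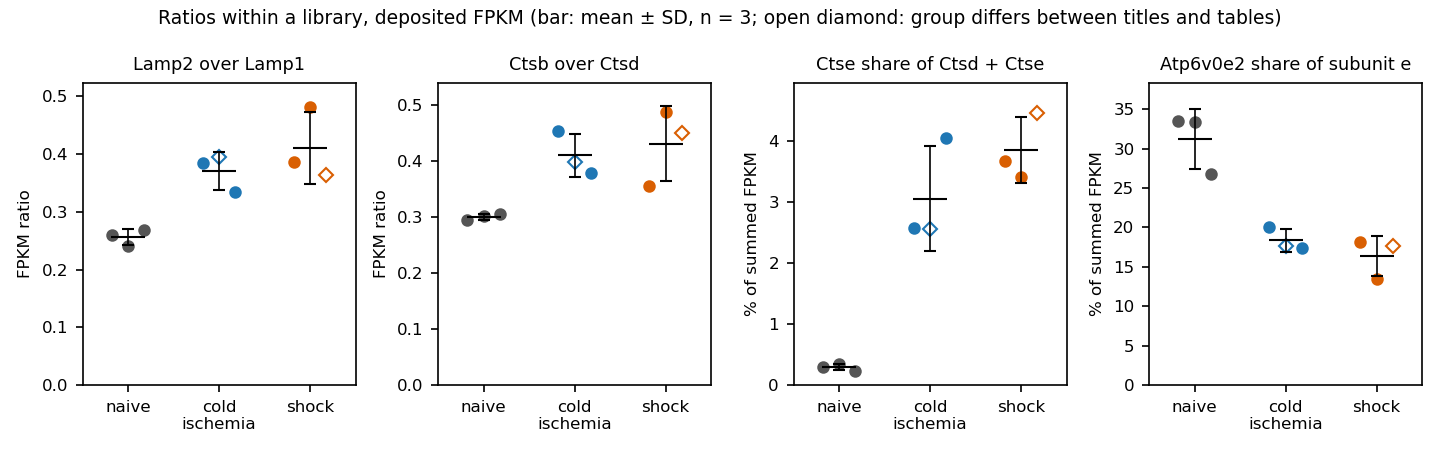
Ratios between members within a library on the deposited FPKM scale, by group, with the mean and SD of the 3 libraries as a bar, each axis from 0. Library scaling does not enter them, and open diamonds mark the 2 libraries of disputed group. Lamp2 over Lamp1, Ctsb over Ctsd and the share of Ctse are above the naive range in all 6 grafts, and the share of Atp6v0e2 is below it.

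Of the serine cathepsins, Ctsg was higher in grafts on few reads and Ctsa was not called. Ctsg, a protease of neutrophil granules, had 0, 2 and 1 reads in naive lungs, 7, 28 and 27 in the cold-ischemia grafts and 0, 27 and 9 in the shock grafts. Pooled over the groups this is a ratio of 23.5 at equal library size, with an exact 95% interval from 7.81 to 116.0 that covers counting error only. Shock replicate 1 had no read, which at its depth allows up to 0.126 CPM, so the groups overlapped. The fitted call (adjusted p = 0.0148) was lost without naive replicate 1 (adjusted p = 0.0652) or naive replicate 3 (adjusted p = 0.0633). Neutrophil markers moved with it, as 14 of 14 listed genes were higher in grafts and their summed CPM was 61.3 to 86.4 in naive lungs and 1127 to 3155 in grafts. That sum was 2679 CPM in shock replicate 1, where Ctsg had no read, with S100a9 the largest entry at 881.2 CPM. The listed genes parted in this library. Mpo (0.2092 CPM), Camp (6.905 CPM) and Ltf (33.9 CPM) were lower there than in any other graft. Ly6g (20.92 CPM), Mmp8 (286.7 CPM), Mmp9 (250.5 CPM) and Csf3r (235.9 CPM) were higher there than in any other graft. The other listed genes lay between. The part of neutrophils in the values of Ctsg was not tested. Ctsa, a carboxypeptidase that also protects other lysosomal enzymes, measured 122.5, 134 and 118 CPM in naive lungs and 96.4 to 139.8 CPM in grafts (-0.06 ± 0.12, adjusted p = 0.733). It overlaps Pltp on the opposite strand, which had 55483 reads against 28039 for Ctsa.

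Markers of other cells that could carry these genes also differed between the groups. In whole lung, fewer cells of a type and less RNA per cell cannot be told apart. Of 16 listed genes of monocytes and macrophages 5 were higher and 2 lower, with a summed CPM of 6514 to 7326 in naive lungs and 5382 to 8849 in grafts. That sum is mostly Lyz2, at 5743 to 6522 CPM in naive lungs, and hides moves of other genes. From naive lungs to grafts, mean CPM went from 24.0 to 641 for Cd14, which was higher, and from 12.4 to 3.07 for Cx3cr1, which was lower. Of 11 alveolar macrophage genes 2 were higher and 1 lower, at 887 to 1184 CPM in naive lungs and 912 to 1751 CPM in grafts. Of 8 endothelial genes 1 was higher and 4 were lower, at 5246 to 5330 CPM against 2685 to 4556 CPM. All 4 B cell genes were lower, at 67.9 to 86.1 CPM against 27.2 to 43.7 CPM. Genes of type 1 cells (1 of 6 higher, 0 lower), of airway epithelium (0 of 6 called) and of T and NK cells (2 of 8 higher, 2 lower) were also counted. Each listed gene had reads in naive lungs and in grafts, and the part of these cells in the members' values was not tested.

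Tested separately, the graft groups gave similar counts against the same 3 naive libraries, which both comparisons share. In cold-ischemia grafts 8 of 34 members were higher and 1 lower, 26.5% in all, against 30.6% of all genes. In shock grafts 9 were higher and 3 lower, 35.3% in all, against 39.9% of all genes. Ctse had a log2 fold change of 3.59 ± 0.28 in cold-ischemia grafts and 3.88 ± 0.28 in shock grafts. For Atp6v1a the values were 0.63 ± 0.12 and 0.61 ± 0.12, for Lamp2 0.49 ± 0.13 and 0.46 ± 0.13, and for Ctsb 0.58 ± 0.14 and 0.62 ± 0.14. The value of Atp6v0e2 was -0.84 ± 0.20 in cold-ischemia grafts and -0.995 ± 0.20 in shock grafts. Ctsh reached 0.70 ± 0.33 (adjusted p = 0.141) and 1.02 ± 0.33 (adjusted p = 0.0325). Without naive replicate 1, 2 or 3 the members called higher were 4, 4 and 5 in cold-ischemia grafts and 5 in each case in shock grafts. In these fits the calls over all genes fell from 4846 to 3564, 3371 and 3977 in cold-ischemia grafts. In shock grafts they fell from 6319 to 4892, 4613 and 5257. Some fits that leave out a graft also lowered the count of members called higher. Members called higher were 5 in cold-ischemia grafts without cold-ischemia replicate 3 and 5 in shock grafts without shock replicate 2. The members called lower in shock grafts were 1 without naive replicate 2, naive replicate 3, shock replicate 1 or shock replicate 2.

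The direct comparison of shock with cold-ischemia grafts asks what the shock of the donor adds. No member was called, and none had an unadjusted p under 0.05. Grouped by the titles, edgeR called 0.0% of all genes tested, and 7.28% had an unadjusted p under 0.05. DESeq2 called 0 members as well, and 8 of all 15834 genes. The members' log2 fold changes ran from -0.66 (Ctsg) to 0.51 (Ctsk), with standard errors from 0.12 to 0.96, and the lack of a call does not show that the groups were alike. For Ctse the difference was 0.29 ± 0.24, for Atp6v1b2 0.29 ± 0.18 and for Ctsh 0.32 ± 0.33. Grouped as in the deposited tables, again 0 members were called, where 0.783% of all genes were. At an unadjusted p under 0.05 there were 7 of 34 members, against 19.4% of all genes. Among these, Ctsh had a log2 fold change of 0.81 ± 0.24 (adjusted p = 0.119) and Ctsf one of -0.62 ± 0.15 (adjusted p = 0.0801), and the exchange of the 2 disputed libraries alone makes the difference from 0.32 and -0.11.

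The authors' deposited table for cold-ischemia grafts against naive lungs gave 12 members higher and 2 lower at their adjusted p under 0.05, where 36.2% of all genes with a value passed. Their deposited table for shock grafts against naive lungs gave 10 higher and 3 lower, where 37.3% of all genes passed, and the authors' deposited table for shock against cold-ischemia grafts gave 0 of 34 members, where 3.1% of all genes passed. In the authors' deposited tables Ctse had a log2 fold change of 3.62 in cold-ischemia grafts and 3.69 in shock grafts. The graft groups of these tables differ from those of the titles by the exchange of the 2 disputed libraries. The edgeR fits on that grouping gave 3.74 and 3.75 for Ctse.

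**Figure D4:**
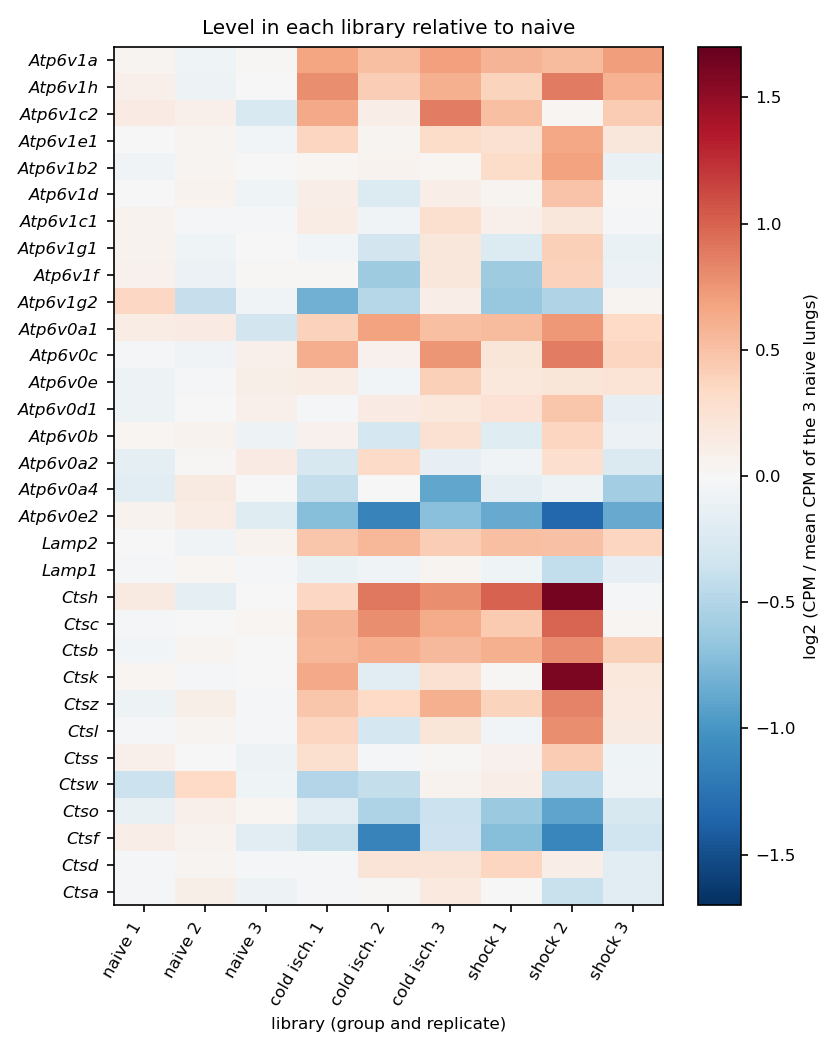
Level of 32 members in each library as log2 of CPM over the mean CPM of the 3 naive lungs, with rows in the order of role and columns by group and replicate. Ctse, Ctsg and Atp6v1g3 are left out because of their range or few reads. Red is above and blue below the naive mean. Atp6v1a, Lamp2 and Ctsb are red in all 6 grafts, Atp6v0e2 is blue in all 6, and shock replicate 2 shows the deepest colours at Ctsh and Ctsk.

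The 6 grafts differed among themselves. Shock replicate 2 had the highest CPM of all grafts at 18 of 34 members, 52.9%, and at 26.9% of all genes tested. Cold-ischemia replicate 2 was the lowest graft at 11 members, 32.4% against 15.8% of all genes, and shock replicate 3 at 10 members, 29.4% against 11.2%. Shock replicate 2 was the lowest graft at Lamp1, Ctsa, Ctso, Atp6v0e2 and Atp6v1c2, so its high values did not extend to every member. It also had the highest neutrophil sum (3155 CPM) and the lowest endothelial sum (2685 CPM), and the part of cell makeup in its values was not tested.

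Of 4 transcription factor genes known to act on lysosomal genes, 2 were higher in grafts, 1 was lower and 1 was not called. Tfe3 measured 43.1, 42.0 and 42.7 CPM in naive lungs and 117 to 152 CPM in grafts, with no overlap and a log2 fold change of 1.62 ± 0.12 (adjusted p = 2.76e-06). Tfec, a related factor of macrophages, was higher as well (1.09 ± 0.37, adjusted p = 0.0345). Tfeb measured 27.9, 31.4 and 29.7 CPM in naive lungs and 15.2 to 25.4 CPM in grafts, all lower (-0.65 ± 0.16, adjusted p = 0.00623). Mitf was not called (0.42 ± 0.20, adjusted p = 0.116). These are RNA levels, and the activity of these factors is governed largely by where the protein sits in the cell. Of the 9 members whose promoter holds CACGTG, Atp6v1a was higher, Ctsf was lower and the other 7 were not called, where 40.8% of all genes tested were called.

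Among 12 partners of the pump outside the naming rule, 10 were tested, of which 3 were higher and 1 lower. Of all genes tested, 22.1% were higher and 18.7% lower. The partners had a median log2 fold change of 0.08 against -0.04 for all genes. Tcirg1, described above, was 1 of the 3 that were higher. Dmxl2, part of a complex that reassembles the V1 and V0 sectors, was higher (0.74 ± 0.18, adjusted p = 0.00736), and so was the accessory subunit gene Atp6ap2 (0.64 ± 0.13, adjusted p = 0.00192). Ccdc115, an assembly factor, was lower (-0.48 ± 0.17, adjusted p = 0.0432). The accessory subunit Atp6ap1 had a log2 fold change of -0.02 ± 0.11.

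Of 34 other hydrolases and activators of the lysosome tested, 2 were higher and 5 lower, beside 22.1% and 18.7% of all genes. Their median log2 fold change was -0.14 against -0.04 for all genes. Gla, which removes galactose from glycolipids, was higher (1.14 ± 0.15, adjusted p = 0.000125), as was Lgmn, the protease that matures several cathepsins (0.33 ± 0.11, adjusted p = 0.0384). Sgsh, Pla2g15, Glb1, Aga and Gusb were lower, from -0.84 for Sgsh to -0.54 for Gusb. Among 14 membrane proteins of the lysosome 3 were higher (Cd63, Cd68 and Laptm5) and 3 lower (Ctns, Slc17a5 and Ostm1), with a median of 0.08. Of 6 genes that deliver hydrolases to the lysosome, only Nagpa was called, and it was lower (-0.88 ± 0.13, adjusted p = 0.000273).

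Inhibitors of cysteine cathepsins that were called in the 6 grafts against naive lungs were higher. Of 8 listed genes 7 were found and 5 were tested, with 3 higher and 0 lower, beside 22.1% and 18.7% of all genes. For shock against cold-ischemia grafts, grouped as in the deposited tables, 0 of the 5 were higher and 1 was lower. Cstb, the cytosolic inhibitor stefin B, measured 36.1, 34.0 and 33.5 CPM in naive lungs and 37.3 to 107.2 CPM in grafts, highest in shock replicate 2 (0.85 ± 0.26, adjusted p = 0.0227). Stfa2, a stefin of neutrophils in mice, had 0 reads in naive lungs and 379 in the grafts, at least 90.9-fold higher against a floor of 3 reads over the naive group. Stfa3 had 1 read in naive lungs and 143 in grafts, a ratio of 103 with an exact 95% interval from 18.2 to 4090. The stefin A genes are near-identical copies, so reads may have been split between them. Cst3, the abundant secreted cystatin C, measured 545 to 638 CPM in naive lungs and 298 to 599.7 CPM in grafts (-0.41 ± 0.23, adjusted p = 0.183).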

How the data were processed

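The authors deposited 3 tables, each for a pair of groups, whose read count columns hold raw whole numbers, as the file headers name them. The deposited tables also hold FPKM (used for levels per length and for ratios), a normalized signal (not used), and the authors' log2 fold changes and p-values with adjusted p-values. The tools listed in the submitters' processing notes are edgeR, DESeq2, HTSeq, STAR and STAR-Fusion, on mm10, and their roles and versions are not given in the sources used here. Per the labels, 1 µg of total RNA entered each library and paired reads of 150 bp were sequenced. Counts were joined by gene identifier, and the repeats between tables held 0 differing counts. No library repeated another within sampling noise.

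Counts were tested with edgeR 4.0.16 in R 4.3.3 (TMM, filterByExpr, quasi-likelihood test, two-sided), with a mean for naive lungs and one for the 6 grafts, or a mean per group. The script was tested on simulated data. Log2 fold changes carry a standard error derived from the test, as the absolute change divided by the square root of its F statistic. CPM use TMM-scaled library sizes. DESeq2 1.42.0 was an alternative. Intervals and floors (3 reads) cover counting error only. Replicate numbers were checked for pairing, and no same-numbered pair correlated above 0.1. Genes named were both Lamp genes, the called members with the largest changes at a mean of at least 2 CPM, Ctsb, Ctsd, Ctsl, Ctss and Ctsg, and other members serve as examples beside their role's count. Members, lists and tests were chosen with earlier results of these data known. The settings tried were other scalings, filters and groupings, a replicate block, and leaving out each library. The fits by the deposited tables' groups beyond the planned one, without the disputed libraries and with total counts alone were chosen after seeing the data.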

Additional observations from a re-analysis of the deposited data

Results flagged for a closer look

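Ctsk stood apart in 1 graft. Its CPM was 69.2 in shock replicate 2 and 20.1 to 35.5 in the other 5 grafts. The gap between this library and the next, divided by the range of the 6 grafts, was 0.687, above the critical value of 0.625 for 6 samples. Among 34 members looked at, it was the only one with such a gap. Chance gives about 1 in 20, so 1 such gap among 34 members is no more than chance would give. Genes outside the members were not looked at for such gaps. The same library was the highest graft at 18 of the 34 members, 52.9%, and at 26.9% of all genes tested. Its neutrophil marker sum was the highest and its endothelial sum the lowest of the grafts. The part of these in the value of Ctsk was not tested.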

How the results depend on the processing

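With upper-quartile scaling, members called higher and lower in all grafts numbered 6 and 3, in cold-ischemia grafts 4 and 3, and in shock grafts 4 and 5. With total counts alone these were 3 and 6, 2 and 3, and 2 and 5. Among all genes called in cold-ischemia grafts, 57.1% were higher with TMM, 39.3% with upper-quartile scaling and 29.2% with total counts alone. In shock grafts these shares were 55.1%, 36.5% and 28.8%. Grouping as in the deposited tables gave 2 members lower in cold-ischemia grafts, and 3 with only the libraries compared. There, calls over all genes rose from 4846 to 5513 and 6706. Leaving out 1 library at a time gave 6 to 11 members higher and 1 to 3 lower in all grafts, 4 to 11 higher in cold-ischemia grafts, and 5 to 13 higher and 1 to 3 lower in shock grafts. Calls over all genes varied in these fits as well. They ran from 4712 to 7008 in all grafts, 3371 to 5662 in cold-ischemia grafts and 4613 to 6635 in shock grafts. Where 1 library is left out of a group, the remaining ones are assumed to vary like the rest. With the replicate block, 9 members were higher and 3 lower in all grafts, and Atp6v0c (adjusted p = 0.0635) and Ctsh (adjusted p = 0.0515) were not called. Correlations of same-numbered libraries ran from -0.394 to 0.096. They gave no sign that the numbers pair the samples, but with 3 libraries per group they cannot exclude it. Shock against cold-ischemia grafts gave 0 members under every alternative, where calls over all genes ran from 0 to 124. With so few calls, a count of 0 says little about the members.

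Members that were not called changed sign in some settings. With upper-quartile scaling the log2 fold changes were -0.20 for Atp6v0a2, -0.17 for Atp6v0b, -0.042 for Atp6v0d1, -0.010 for Atp6v0e, -0.0098 for Atp6v1b2, -0.10 for Atp6v1c1, -0.10 for Atp6v1d, -0.20 for Atp6v1g1, -0.074 for Ctsd and -0.081 for Ctss. With total counts alone they were -0.32 for Atp6v0a2, -0.29 for Atp6v0b, -0.16 for Atp6v0d1, -0.13 for Atp6v0e, -0.13 for Atp6v1b2, -0.22 for Atp6v1c1, -0.22 for Atp6v1d, -0.0079 for Atp6v1e1, -0.32 for Atp6v1g1, -0.19 for Ctsd, -0.089 for Ctsl and -0.20 for Ctss. Atp6v0a2 and Atp6v1g1 were -0.011 and -0.012 with no filter on low counts, -0.0019 and -0.0022 with a filter of 1 CPM in 3 libraries, and -0.016 and -0.0009 with the replicate block. Atp6v0a2 was -0.010 with 3 group means of the deposited tables and -0.026 without the disputed libraries, where Atp6v1f was 0.050. Over the fits that leave out 1 library, Atp6v0a2 ran from -0.083 to 0.077, Atp6v0b from -0.039 to 0.096, Atp6v1f from -0.18 to 0.022, Atp6v1g1 from -0.091 to 0.061 and Ctsw from -0.34 to 0.020. The cause was not tested. Depth limits mainly Ctsg, Ctsw, Atp6v1g2 and Atp6v1g3.
Ctsg fell under the filter on low counts without cold-ischemia replicate 2, cold-ischemia replicate 3, shock replicate 2 or the disputed libraries, and has no value there.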
